A study of Mus musculus with 12 samples.

Results

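The genes described here, 41 in number, are interferon-stimulated and nucleic acid sensing genes, with which cells detect foreign or misplaced DNA and RNA, pass the alarm on and restrain viruses. They were taken by symbol from the deposited count table of 24421 genes. All 41 were found, and all 41 were among the 15220 genes with enough counts to be tested. They comprise the interferon gene Ifnb1, 4 sensors of RNA, 3 genes of DNA and Z-form nucleic acid sensing, 5 transcription factors, 7 effectors of the OAS and MX families, 10 genes of IFIT proteins, viperin and other antiviral effectors, 2 guanylate-binding proteins, 4 genes of the ISG15 system, 3 of the PARP9 group, and 2 whose products limit the cell's own nucleic acids or their building blocks.

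RIG-I-like receptors recognise double-stranded RNA in the cytosol, while cGAS recognises DNA there and signals through STING. Both routes activate IRF transcription factors that switch on interferon beta, the main type I interferon of fibroblasts. Secreted interferon acts through its receptor on ISGF3, a complex that contains STAT2 and IRF9 and binds interferon-stimulated response elements to raise transcription of a large set of antiviral genes, many of the sensors among them.

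The RNA-Seq libraries, 12 in all and 3 in each of 4 groups, came from mouse embryonic fibroblasts (MEFs). The control genotype is called Null in the labels and WT in the paper, and the other is a TFEB/TFE3 double knockout (DKO) made by CRISPR editing. MEFs of each genotype were either left as controls or given 100 µM etoposide for 8 hr. The comparisons ask how cells that lack TFEB and TFE3, transcription factors of lysosomal and autophagy genes, respond to DNA damage from etoposide, which traps topoisomerase II on DNA. The labels call the controls untreated, the word used here, whereas the paper's methods describe DMSO. The MEFs were SV40-immortalized and each genotype was 1 line, so that a difference between genotypes and a difference between lines cannot be told apart. Neither clonality of the DKO line nor whether replicates were separate cultures is given in the sources used here, and the p-values measure the spread between these samples, which may be technical. Bulk RNA also cannot tell fewer cells with a transcript from less RNA per cell.

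Counts on genes were 83970210, 67654759 and 66956083 in the 3 untreated Null libraries and 75454495, 76125320 and 63286195 in the Null libraries with etoposide. They were 74826945, 104120871 and 66749645 in untreated DKO MEFs and 45577023, 68441372 and 94388705 in DKO MEFs with etoposide. Levels are given as CPM, counts scaled to a common library total with edgeR's TMM factors. A level of 3 counts, taken as the limit of detection, lay between 0.0298 and 0.0607 CPM, a limit that covers counting error only. Comparisons used the quasi-likelihood test of edgeR, its p-values adjusted by Benjamini-Hochberg over the 15220 genes, and a gene is called higher or lower at an adjusted p under 0.05. Responses and differences are log2 fold changes unless another unit is given, and the 5 comparisons share libraries. Single libraries are named by group and replicate number, with control for untreated. With 3 libraries against 3, no exact permutation p can be under 0.1. In a principal component analysis, components of 59.7% and 27.1% of the variance placed the 3 libraries of each group together and the 4 groups apart.

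Tfeb, targeted together with Tfe3, was measured at 38.9, 39.2 and 42.1 CPM in untreated Null MEFs and 4.6, 6.09 and 4.68 CPM in untreated DKO MEFs, and at 11.4, 10.2 and 10.4 CPM and 1.92, 1.61 and 2.2 CPM after etoposide. Every DKO library lay below every Null library of its treatment, with log2 fold changes of -2.94 (standard error 0.09) and -2.46 (standard error 0.12). Tfe3 was at 115, 110 and 114 CPM in untreated Null MEFs and 94.1, 93 and 91 CPM in untreated DKO MEFs, then at 68.5, 69.6 and 68.1 CPM and 70.7, 71.2 and 63.4 CPM after etoposide. Untreated DKO libraries lay below untreated Null ones, but its transcript was still present in DKO MEFs and the genotypes overlapped after etoposide, and whether the counted reads cover the edited part is not given in the sources used here. Tfeb therefore separates the genotypes as labelled, and Tfe3 does not check the labels after etoposide.

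Of 10 fibroblast markers, all were detected, Vim being the most abundant over all libraries (in treated DKO MEFs Fn1 was), and their summed level was 7180 to 7330 CPM in untreated Null MEFs, 11700 to 12300 in untreated DKO MEFs, 3830 to 3960 in Null MEFs after etoposide and 4890 to 5240 in DKO MEFs after etoposide. Among them Thy1 reached 4.5, 4.1 and 4.03 CPM in untreated Null MEFs and at most 0.287 CPM in any DKO library, and Dcn at most 3.17 CPM in any library. Thy1 was the only 1 of the 10 called lower in untreated DKO MEFs, while the other 9 were called higher, such as Pdgfra (mean of 20.9 CPM in Null and 197 in DKO MEFs), Col3a1 (194 and 1230) and Pdgfrb (54.7 and 103). A list of 10 macrophage and leukocyte markers summed to 16.5 to 19.5 CPM in untreated Null, 78.5 to 79.1 in treated Null, 7.58 to 9.31 in untreated DKO and 12.5 to 15.1 in treated DKO MEFs. Cd14 was its most abundant gene, Tyrobp was not detected in any group, Adgre1 and C1qa were at 0 in all untreated libraries, and Ptprc reached at most 0.54 CPM. The 5 endothelial markers summed to at most 2.97 CPM, with Tek the most abundant over all libraries (in treated DKO and untreated Null MEFs Pecam1 was) and Emcn at 0 in untreated libraries. The 5 epithelial markers, led by Krt19, summed to 15.7 to 17.1 CPM in untreated Null, 36.1 to 37.6 in untreated DKO, 22.7 to 25.8 in treated Null and 15.5 to 16.2 in treated DKO MEFs. The part of these markers and of the cells they stand for in the results was not tested.

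Interferon-stimulated genes stood higher in DKO than in Null MEFs, both without and after etoposide. Without etoposide, 34 of the 41 members were called higher in DKO MEFs, where 33.3% of all genes tested were, and 2 were called lower, where 33.4% of all genes were. After etoposide 34 were higher and 2 lower, against 37.5% and 36.6% of all genes. The members' median log2 fold change was 0.61 without etoposide and 0.79 after it, while that of all genes tested was -0.02 and 0. Of the members, 12 were at least 2-fold higher without etoposide and 15 after it (29.3% and 36.6%, beside 7.67% and 5.2% of all genes), and 1, Oas3, was at least 2-fold lower without etoposide (2.44%, beside 10.8%). After etoposide no member was at least 2-fold lower, beside 17% of all genes.

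Most of these differences were shared between treatments. In both, 30 members were higher in DKO MEFs. Of all genes tested at most 33.3% can have been, the share called higher without etoposide. Irf1, Ifi35, Gbp2 and Gbp3 were called higher without etoposide alone, and Dhx58, Mb21d1, Zbp1 and Adar after etoposide alone. For 34 members all 3 DKO libraries lay above all 3 Null libraries without etoposide, and likewise for 34 after it. The share of all genes that separate in this way is not given here, so these counts describe the members alone. Summed over the 41 members, the level was 2020 to 2150 CPM in untreated Null and 3020 to 3280 CPM in untreated DKO MEFs, and 2450 to 2670 and 4300 to 4550 CPM after etoposide, so that no library of a group reached into another. Of the 34 calls without etoposide, that of Gbp2 ended when Null control 2 or DKO control 3 was left out (log2 fold change 0.19 to 0.23), and that of no other member with a single library left out.

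**Figure D1:**
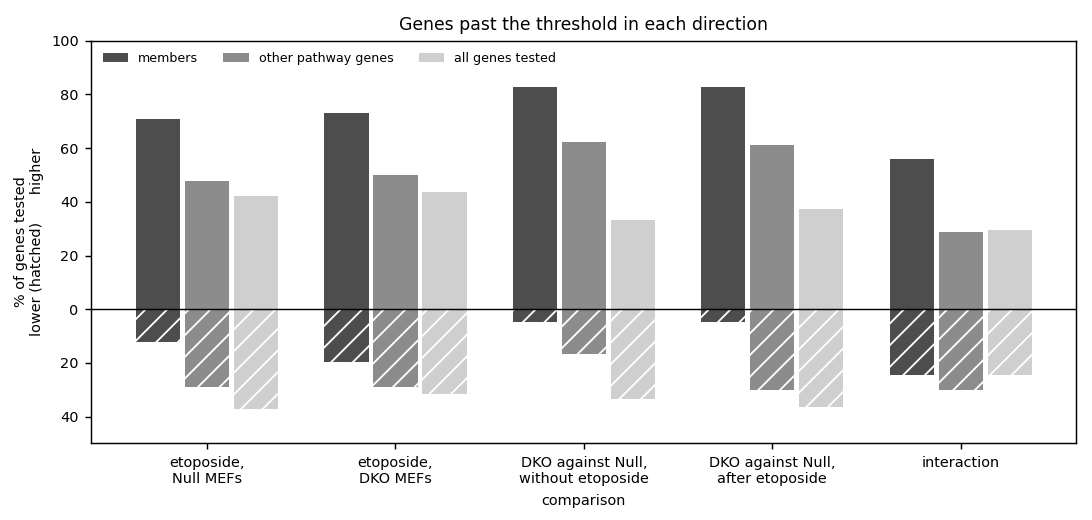
Share of genes past the threshold of edgeR's test in each of the 5 comparisons, in % of the genes tested, for 41 members (dark), 90 other pathway genes (middle grey) and all 15220 genes tested (light); bars above 0 are genes called higher and hatched bars below 0 are genes called lower. In DKO against Null MEFs 82.9% of members were higher in either treatment, against 33.3 and 37.5% of all genes.

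**Figure D2:**
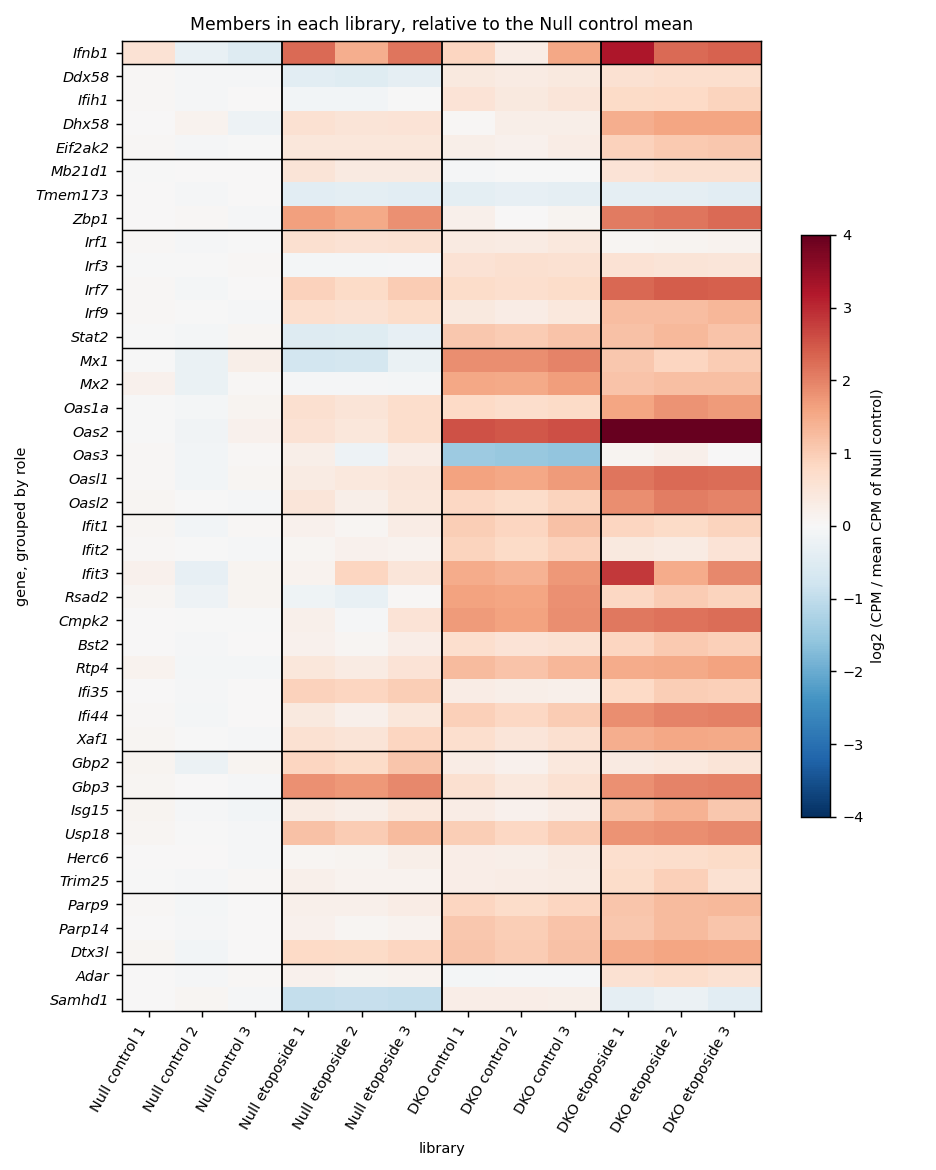
Level of each member in each of the 12 libraries as log2 of its CPM over the mean CPM of the 3 untreated Null libraries, with genes grouped by role between horizontal lines and groups of libraries between vertical lines (red above and blue below that mean). The DKO columns are mostly red, deepest for Oas2 at 56.4 to 60 CPM after etoposide, while Oas3 is blue in untreated DKO and Samhd1 in treated Null MEFs.

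**Figure D3:**
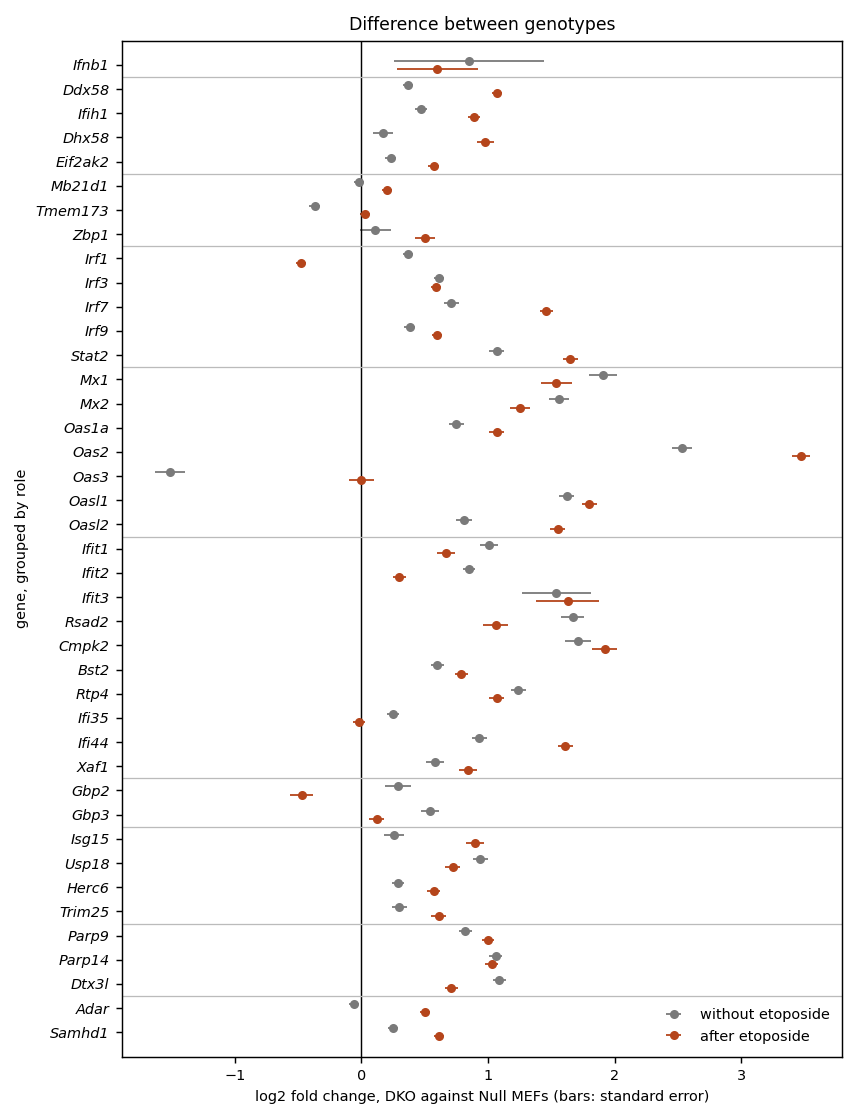
Log2 fold change of DKO against Null MEFs for each member, grouped by role, without etoposide (grey) and after it (orange), as points with bars of 1 standard error (n = 3 libraries per group). Oas2 lies furthest right at 2.53 and 3.47, and Oas3 furthest left without etoposide at -1.51.

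Etoposide raised most members in both genotypes. In Null MEFs 29 of the 41 were higher and 5 lower after 8 hr, where 42.3% and 37.2% of all genes tested were. In DKO MEFs 30 were higher and 8 lower, where 43.7% and 31.5% of all genes were. The median log2 fold change of the members was 0.35 in Null and 0.48 in DKO MEFs, beside 0.07 and 0.14 over all genes. At least 2-fold rises numbered 4 in Null MEFs (Ifnb1, Gbp3, Zbp1 and Usp18) and 9 in DKO MEFs. That is 9.76% and 22% of members, beside 22.4% and 17.9% of all genes. In Null MEFs the members' share of such rises was thus smaller than that of all genes. No member fell by as much, beside 8.1% and 7.93% of all genes.

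In both genotypes 24 members were higher after etoposide, where at most 42.3% of all genes can have been, the share called higher in Null MEFs. Mx1 and Samhd1 were lower in both, where at most 31.5% of all genes can have been, the share called lower in DKO MEFs. Ddx58 and Stat2 were higher in DKO and lower in Null MEFs, and Irf1, Ifit1 and Ifit2 the other way round. The shares of all genes with such opposite calls are not given here. Tested directly, the interaction of genotype and etoposide was above 0 for 23 members and below 0 for 10, where 29.6% and 24.4% of all genes were. A value above 0 means a larger rise, a smaller fall, or a rise in place of a fall in DKO MEFs. The median interaction was 0.22 over the members and 0.05 over all genes. The share of members below 0 was thus that of all genes, and the share above 0, 56.1%, was larger.

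Scaling matters for these counts. Library size alone, without TMM factors, moves the all-gene median by a log2 of 0.17 for etoposide in Null MEFs, 0.27 in DKO MEFs, -0.12 and -0.02 for DKO against Null MEFs without and after etoposide, and 0.10 for the interaction. The split of all genes then becomes 7803 higher and 4396 lower for etoposide in Null MEFs, 9316 and 3006 in DKO MEFs, 3977 and 6393 for DKO against Null MEFs without etoposide, 5544 and 5704 after it, and 5735 and 3055 for the interaction. For the members it becomes 33 and 5 for etoposide in Null MEFs, 34 and 4 in DKO MEFs, 32 and 4 for DKO against Null MEFs without etoposide, 34 and 2 after it, and 24 and 7 for the interaction. For the interaction DESeq2's size factors in edgeR shift the other way, moving the all-gene median by -0.06, with 3797 genes above 0 and 4192 below, beside 19 and 12 members. The filter at 1 CPM gave 3816 and 3870 genes, beside 20 and 12 members. The count shares also differ by group. Rn45s, the precursor of ribosomal RNA, took 2.2 to 2.89% of the counts on genes in untreated Null, 1.66 to 1.95% in untreated DKO, 3.81 to 4.37% in treated Null and 2.98 to 3.58% in treated DKO MEFs. Whether this bears on the members was not tested. Where the direction of a value given below turns with library size alone, that value is added, and calls that other scalings, filters or fits end or add are listed by setting in the closing part.

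**Figure D4:**
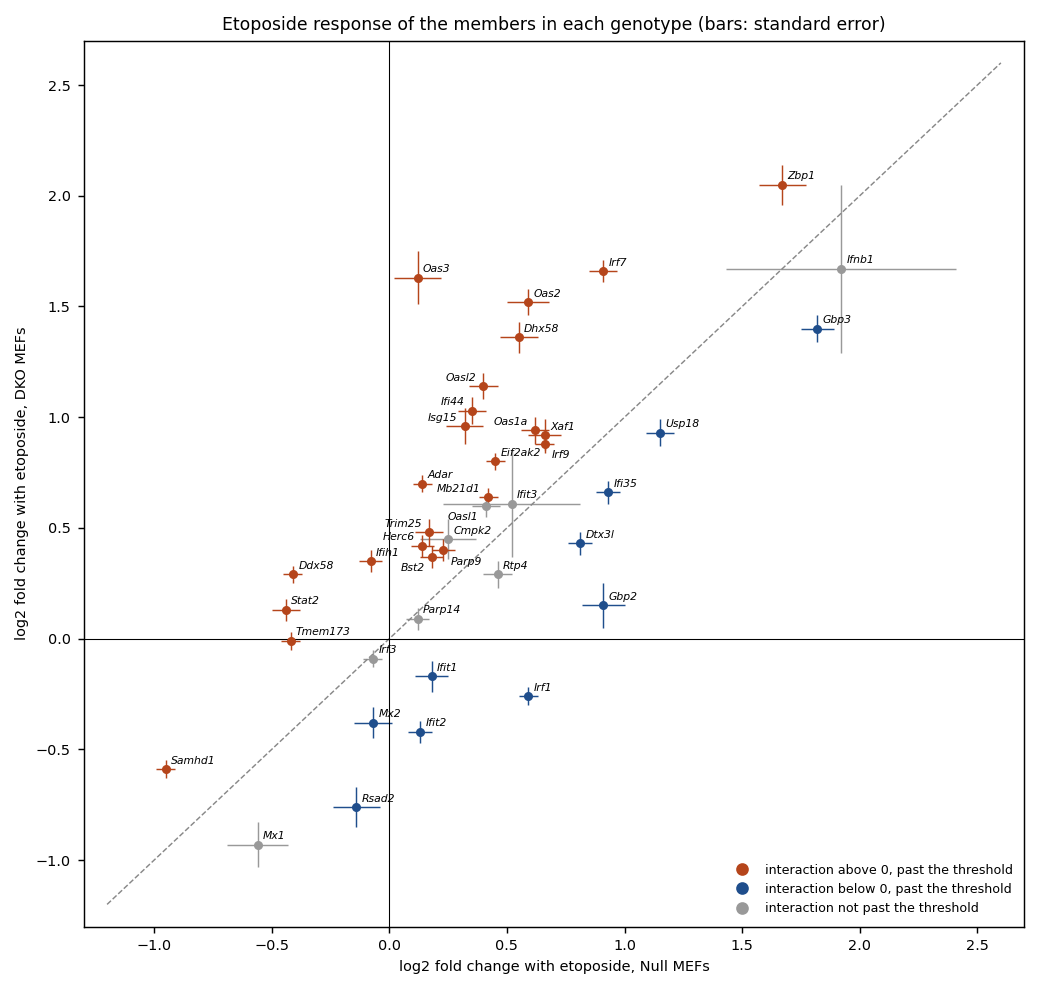
Log2 fold change with etoposide of the 41 members in Null MEFs (horizontal) and in DKO MEFs (vertical), with bars of 1 standard error and the dashed line where both are equal. Red points had an interaction above 0 past the threshold, such as Oas3 at 0.12 and 1.63, blue points one below 0, such as Irf1 at 0.59 and -0.26 (0.02 in DKO MEFs with library-size scaling), and grey points neither.

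Ifnb1, which encodes secreted interferon beta, was scarce. It was measured at 0.197, 0.108 and 0.0927 CPM in untreated Null MEFs and 0.635, 0.363 and 0.583 CPM after etoposide, and at 0.241, 0.163 and 0.386 CPM in untreated DKO MEFs and 1.25, 0.628 and 0.675 CPM after etoposide, from 6 to 68 counts per library. In each genotype all treated libraries lay above all untreated ones, while Null and DKO libraries of a treatment overlapped. The log2 fold change with etoposide was 1.92 (standard error 0.49) in Null MEFs and 1.67 (standard error 0.38) in DKO MEFs (adjusted p = 0.00168 and 0.000872 by the quasi-likelihood test of edgeR, Benjamini-Hochberg adjustment). Between genotypes it was 0.85 (standard error 0.59) without etoposide and 0.60 (standard error 0.32) after it, neither past the threshold of the same edgeR test (adjusted p = 0.219 and 0.0983). Over the alternatives the value ran from 0.51 to 1.29 without etoposide and from 0.30, without DKO etoposide 1, to 0.76 after it, and the latter passed only with the replicate block (0.65). Its interaction came to -0.25 (standard error 0.67, adjusted p = 0.786) in that edgeR test. Of 11 other interferon genes, 9 had too few counts to be tested. Ifna4 and Ifnz, which belong to the type I cluster and have close copies there, reached mean levels of at most 0.284 CPM. Both were called higher after etoposide in Null MEFs and lower in DKO than in Null MEFs after etoposide, with interactions of -0.83 (standard error 1.17) and -0.98 (standard error 1.09) that did not pass.

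All 4 RNA sensors stood higher in DKO than in Null MEFs after etoposide, and all 4 responded to etoposide differently by genotype. Ddx58 encodes RIG-I, which recognises short double-stranded RNA with a triphosphate end. Its levels were 169, 158 and 157 CPM in untreated Null and 211, 203 and 213 CPM in untreated DKO MEFs, then 122, 117 and 126 CPM and 248, 259 and 260 CPM after etoposide. Treated Null libraries were the lowest and treated DKO libraries the highest, and no group overlapped another. The log2 fold change was -0.41 (standard error 0.04) in Null MEFs and 0.29 (standard error 0.04) in DKO MEFs, and the interaction came to 0.70 (standard error 0.05, adjusted p = 7.26e-09) in the edgeR test. DKO MEFs had 1.29-fold the Null level without etoposide and 2.1-fold after it (log2 1.07, standard error 0.04).

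Ifih1 encodes MDA5, the receptor of long double-stranded RNA. Untreated Null libraries gave 75.7, 70.7 and 74.3 CPM and treated ones 68.5, 68.7 and 72.1 CPM, whereas DKO libraries gave 108, 95.6 and 102 CPM and 124, 128 and 136 CPM. Null levels overlapped between treatments and every treated DKO library lay above every other library. With etoposide the log2 fold change was 0.35 (standard error 0.05) in DKO MEFs and -0.08 (standard error 0.05), not past the threshold and 0.09 with library size alone, in Null MEFs, with an interaction of 0.42 (standard error 0.07, adjusted p = 4.12e-05) in the edgeR test. The genotypes differed by 0.47 (standard error 0.05) without and 0.89 (standard error 0.05) after etoposide.

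Dhx58, whose product LGP2 tunes signalling by both receptors, was at 9.03, 10 and 7.89 CPM in untreated Null and 9.37, 10.5 and 10.5 CPM in untreated DKO MEFs, which overlapped. After etoposide it was at 13.6, 12.8 and 13 CPM in Null and 24.6, 26.6 and 26.6 CPM in DKO MEFs, and all DKO libraries lay above all Null libraries. The rise was 1.46-fold in Null and 2.57-fold in DKO MEFs, with an interaction of 0.81 (standard error 0.11, adjusted p = 5.71e-06) in the edgeR test. Without etoposide the genotypes differed by 0.17 (standard error 0.08, adjusted p = 0.0763) in the same edgeR test, which passed when Null control 2 or DKO control 1 was left out (log2 fold change 0.21 to 0.25).

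Eif2ak2 encodes PKR, a kinase that stops translation when it binds double-stranded RNA. It was measured at 145, 136 and 137 CPM in untreated Null and 162, 158 and 169 CPM in untreated DKO MEFs, and at 192, 191 and 189 CPM and 263, 290 and 296 CPM after etoposide. The 4 groups did not overlap and stood in the order untreated Null, untreated DKO, treated Null, treated DKO. Log2 fold changes with etoposide were 0.45 (standard error 0.04) and 0.80 (standard error 0.04) in Null and DKO MEFs, and the interaction came to 0.34 (standard error 0.06, adjusted p = 0.000117) in the edgeR test. Per kb of exon, the level in treated DKO MEFs was 55.4 CPM for Eif2ak2, 36.2 for Ddx58, 15.9 for Ifih1 and 7.93 for Dhx58. A few percent of the exons of Eif2ak2 and Dhx58 overlap a gene on the opposite strand, and although the paper names a stranded library kit, the strand setting of the counting is not given, which leaves such counts uncertain.

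The DNA and Z-form sensing genes did not move together. Mb21d1 encodes cGAS, the sensor that turns cytosolic DNA into a cyclic dinucleotide. Null libraries gave 49.2, 49.4 and 49.4 CPM without and 70.2, 63.4 and 63.7 CPM with etoposide, and DKO libraries 47.9, 48.5 and 49.1 CPM and 71.9, 77.6 and 77.4 CPM. Untreated DKO libraries lay just below untreated Null ones, and every treated DKO library was above every treated Null library. Etoposide raised Mb21d1 by 0.42 (standard error 0.04) in Null and 0.64 (standard error 0.04) in DKO MEFs, and the interaction came to 0.23 (standard error 0.06, adjusted p = 0.00509) in the edgeR test. Without etoposide the genotypes differed by -0.02 (standard error 0.04, adjusted p = 0.659) in that edgeR test, which library size alone put past the threshold as lower.

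Tmem173 encodes STING, the membrane protein that receives the cGAS signal. It was at 44.3, 42 and 44.4 CPM in untreated Null MEFs, 32.2, 33.1 and 32.7 CPM in treated Null, 32.9, 34.4 and 33.8 CPM in untreated DKO and 33.9, 34.2 and 32.2 CPM in treated DKO MEFs. The untreated Null libraries were the high ones, and the other 3 groups overlapped. Etoposide lowered it in Null MEFs, with a log2 fold change of -0.42 (standard error 0.04), and DKO MEFs were lower without etoposide by -0.37 (standard error 0.04). In DKO MEFs the value with etoposide was -0.01 (standard error 0.04), which turned to 0.26 with library size alone, and the interaction came to 0.40 (standard error 0.06, adjusted p = 2.03e-05) in the edgeR test.

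Zbp1, a sensor of Z-form RNA and DNA linked to necroptosis, had the largest rise with etoposide of all members in DKO MEFs. Levels were 3.33, 3.38 and 3.18 CPM and 3.81, 3.36 and 3.59 CPM in untreated Null and DKO MEFs, and 10.4, 9.49 and 11.6 CPM and 13.9, 14.5 and 15.8 CPM in treated ones. Untreated genotypes overlapped (log2 0.11, standard error 0.12, and -0.01 with library size alone), all treated libraries lay above them, and treated DKO above treated Null. That is a 3.17-fold rise in Null (log2 1.67, standard error 0.10) and a 4.16-fold rise in DKO MEFs (log2 2.05, standard error 0.09). For the interaction the value was 0.39 (standard error 0.14, adjusted p = 0.0278) in the edgeR test and was no longer past the threshold without Null control 1 or 2, DKO control 2, Null etoposide 2, or DKO etoposide 3 (0.32 to 0.38), or with DESeq2 and its size factors.

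All 5 transcription factors stood higher in DKO than in Null MEFs without etoposide, and 4 of the 5 after it. Irf7, the interferon regulatory factor that amplifies type I interferon, gave 49.5, 46.1 and 49.1 CPM in untreated Null MEFs and 80.9, 76.5 and 80 CPM in untreated DKO MEFs. After etoposide it gave 91.2, 82.4 and 98.5 CPM in Null and 238, 261 and 251 CPM in DKO MEFs. The treated DKO libraries lay far above the rest, and treated Null libraries above untreated DKO ones. The log2 fold change with etoposide was 0.91 (standard error 0.06) in Null and 1.66 (standard error 0.05) in DKO MEFs, and that between genotypes 0.71 (standard error 0.06) without and 1.46 (standard error 0.05) after etoposide. For the interaction the value was 0.75 (standard error 0.08, adjusted p = 2.48e-07) in the edgeR test.

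Stat2 encodes a STAT that joins Irf9 in ISGF3. It was measured at 31.9, 30.6 and 33.5 CPM in untreated Null, 22.4, 22.7 and 25.5 CPM in treated Null, 67, 64.8 and 70.3 CPM in untreated DKO and 72, 78.2 and 70.4 CPM in treated DKO MEFs. All DKO libraries stood far above all Null libraries, and treated Null libraries lay below untreated ones. DKO against Null MEFs it was 2.11-fold without etoposide and 3.13-fold after it (log2 1.65, standard error 0.06). The fall in Null MEFs was -0.44 (standard error 0.06), and the interaction 0.57 (standard error 0.08, adjusted p = 8.41e-06) in the edgeR test. The rise in DKO MEFs, 0.13 (standard error 0.05, adjusted p = 0.038) in the same edgeR test, ended without DKO control 1 or 2, or DKO etoposide 1 or 2 (0.07 to 0.12).

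Irf9, the DNA-binding part of ISGF3, was at 66.9, 63.8 and 63.3 CPM and 85.4, 80.2 and 86.6 CPM in untreated Null and DKO MEFs and at 102, 98 and 107 CPM and 152, 151 and 161 CPM in treated ones. The groups did not overlap and treated DKO MEFs stood highest. Its interaction was 0.22 (standard error 0.06, adjusted p = 0.00476) in the edgeR test, on top of rises with etoposide of 0.66 (standard error 0.04) in Null and 0.88 (standard error 0.04) in DKO MEFs.

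Irf3 is a factor that signals from the sensors activate by phosphorylation rather than by more transcript. Null libraries gave 51.6, 52.4 and 53.8 CPM without and 49.6, 50.1 and 50.9 CPM with etoposide, and DKO libraries 78.8, 82.3 and 79.9 CPM and 78, 75.3 and 74.1 CPM. All DKO libraries lay above all Null libraries, and treatments of a genotype lay close together. The genotypes differed by 0.61 (standard error 0.04) without and 0.59 (standard error 0.04) after etoposide, each past the threshold. The fall with etoposide in DKO MEFs was -0.09 (standard error 0.04, adjusted p = 0.0374) in the edgeR test, was lost without DKO control 3 or DKO etoposide 3 (-0.09 to -0.08), and turned to a rise of 0.19 with library size alone. In Null MEFs it was -0.07 (standard error 0.04), not past the threshold, and 0.10 with library size alone.

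Irf1, a factor induced by both interferon and NF-kB, moved in opposite directions in the genotypes. Its levels were 52.8, 49.8 and 51 CPM in untreated Null and 79, 75.8 and 77.3 CPM in treated Null MEFs, but 66, 63.8 and 68.8 CPM in untreated DKO and 54, 55.1 and 56.7 CPM in treated DKO MEFs. The DKO libraries lay above the Null ones without etoposide and below them after it. The log2 fold change with etoposide was 0.59 (standard error 0.04) in Null and -0.26 (standard error 0.04) in DKO MEFs, the latter 0.02 with library size alone. The interaction, -0.85 (standard error 0.06, adjusted p = 9e-10) in the edgeR test, was the lowest of the 41 members, and DKO against Null MEFs the value went from 0.37 (standard error 0.04) to -0.48 (standard error 0.04). Exons of Irf1, Irf3, Irf7 and Irf9 overlap another gene by at most 3.4% of their length.

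**Figure D5:**
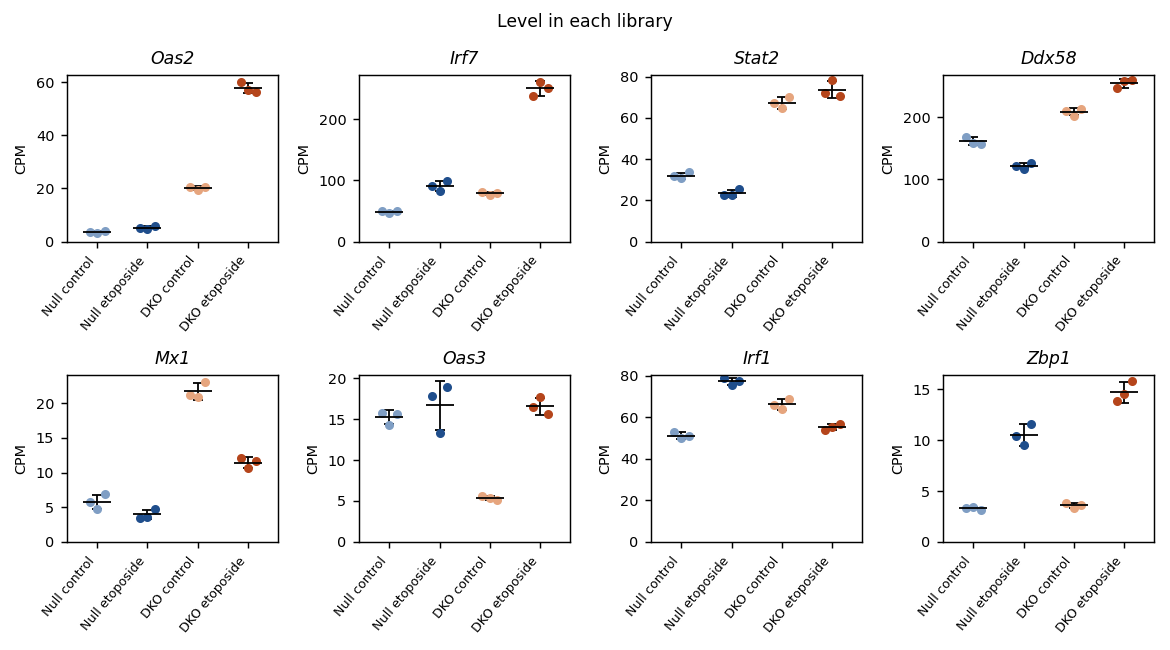
CPM of Oas2, Irf7, Stat2, Ddx58, Mx1, Oas3, Irf1 and Zbp1 in the 12 libraries, 1 point per library, with the mean of each group as a horizontal line and its SD as a bar (n = 3). Irf7 reached 238 to 261 CPM in treated DKO MEFs and at most 98.5 CPM elsewhere, whereas Oas3 was lowest in untreated DKO MEFs, at 5.08 to 5.56 CPM.

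Promoter windows from RefSeq, 250 bases before to 50 after the annotated start on GRCm38.p6, were matched for 31 of the 41 members, Mb21d1 under its symbol Cgas. Dhx58, Tmem173, Zbp1, Mx1, Mx2, Oas2, Rtp4, Usp18, Parp9 and Parp14 were not matched. The windows were searched on either strand for the core of an interferon-stimulated response element, written as GAAA, any 2 bases and GAAA, with overlapping matches counted, and for CACGTG, the E-box form bound by TFEB and TFE3. The response element core was in 13 of the 31 windows (41.9%) and in 3.99% of those of 27025 genes. CACGTG was in 1, that of Trim25 (3.23%), and in 8.09% of all genes. A match is a description of the sequence, not evidence of binding, and no match says only that these letters are not in the window. The median log2 fold change of DKO against Null MEFs was 0.54 for members with the core and 0.59 for the 18 without it when untreated, and 0.89 and 0.60 after etoposide.

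Stretches around the core are printed for members, apart from Gbp2, in which it lay before the start, since these genes moved with genotype in unlike ways (Stat2 higher in DKO MEFs in both treatments, Oas3 lower when untreated, Gbp3 higher when untreated and not past the threshold after etoposide). They run 5′ to 3′ on the strand of the gene, with the core in capitals (TTTC where it lies on the other strand) and up to 30 bases on each side. Positions on GRCm38.p6 are chr10:128270248-128270315 for Stat2, chr19:34640755-34640843 for Ifit1, chr19:34583343-34583446 for Ifit3 and chr3:142559969-142560043 for Gbp3, all on the plus strand. On the minus strand they are chr5:120907526-120907575 for Oas1a, chr5:120777695-120777764 for Oas3, chr12:26456533-26456602 for Rsad2, chr8:71537557-71537632 for Bst2 and chr4:156200845-156200926 for Isg15.
Stat2: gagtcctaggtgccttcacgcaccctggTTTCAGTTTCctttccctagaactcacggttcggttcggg
Oas1a: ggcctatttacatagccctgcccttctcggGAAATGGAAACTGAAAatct
Oas3: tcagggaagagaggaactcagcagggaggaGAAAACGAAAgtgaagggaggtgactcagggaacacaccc
Ifit1: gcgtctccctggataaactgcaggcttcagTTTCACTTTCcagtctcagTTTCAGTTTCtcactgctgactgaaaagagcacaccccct
Ifit3: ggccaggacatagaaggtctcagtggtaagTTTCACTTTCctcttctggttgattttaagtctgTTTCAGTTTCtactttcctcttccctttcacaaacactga
Rsad2: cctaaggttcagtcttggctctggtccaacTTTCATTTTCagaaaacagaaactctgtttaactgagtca
Bst2: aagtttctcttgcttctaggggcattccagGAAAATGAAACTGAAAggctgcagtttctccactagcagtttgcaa
Gbp3: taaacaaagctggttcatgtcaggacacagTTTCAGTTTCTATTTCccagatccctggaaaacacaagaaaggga
Isg15: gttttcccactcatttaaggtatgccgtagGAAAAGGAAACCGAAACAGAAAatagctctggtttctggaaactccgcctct
Gbp2, called higher in untreated and lower in treated DKO MEFs, also had the core, beginning 59 bases before its start, but its stretch is not printed. In Ddx58, Ifih1 and Eif2ak2 the core lay after the start.

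The OAS and MX effectors held both the largest excess and the largest deficit in DKO MEFs. Oas2 makes short oligoadenylates when double-stranded RNA is present. It was at 3.42, 3.13 and 3.88 CPM in untreated Null and 20.5, 19.4 and 20.6 CPM in untreated DKO MEFs, and at 5.25, 4.73 and 5.72 CPM and 60, 56.9 and 56.4 CPM after etoposide. The 4 groups did not overlap, and both DKO groups lay above both Null groups. The difference was 5.79-fold without etoposide (log2 2.53, standard error 0.08, adjusted p = 9.47e-15 in the edgeR test) and 11.1-fold after it (log2 3.47, standard error 0.07), and its interaction was 0.93 (standard error 0.11, adjusted p = 1.44e-06) in the same edgeR test.

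Oas3, the family member that senses long double-stranded RNA, behaved otherwise. Untreated Null libraries gave 15.8, 14.3 and 15.7 CPM and untreated DKO libraries 5.56, 5.39 and 5.08 CPM, while treated Null and DKO libraries gave 17.9, 13.3 and 18.9 CPM and 16.5, 17.7 and 15.6 CPM. The untreated DKO libraries were the low ones, and the other 3 groups overlapped. Without etoposide DKO MEFs were 2.85-fold lower (log2 -1.51, standard error 0.12, adjusted p = 2.76e-09 in the edgeR test), and after etoposide the value was 0.00 (standard error 0.10), -0.02 with library size alone and between -0.15 and 0.10 over the alternatives. The rise with etoposide was 1.63 (standard error 0.12) in DKO MEFs and 0.12 (standard error 0.10), not past the threshold, in Null MEFs, where it passed without Null etoposide 2 (0.26) and with library size alone (0.29). The interaction of 1.51 (standard error 0.15, adjusted p = 2.25e-07) in that edgeR test was the highest of all members.

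Mx1, a dynamin-like GTPase that blocks influenza viruses, gave 5.73, 4.78 and 6.83 CPM in untreated Null and 21.2, 20.9 and 23.1 CPM in untreated DKO MEFs, then 3.5, 3.58 and 4.77 CPM and 12.1, 10.6 and 11.6 CPM after etoposide. DKO libraries lay above Null libraries in both treatments, and treated below untreated libraries in both genotypes. It was 3.75-fold higher in DKO MEFs without etoposide (log2 1.91, standard error 0.11) and 2.91-fold after it. With etoposide the log2 fold change was -0.56 (standard error 0.13) in Null and -0.93 (standard error 0.10) in DKO MEFs. The interaction, -0.37 (standard error 0.17, adjusted p = 0.072) in the edgeR test, passed without Null control 3 or Null etoposide 1 (-0.49 to -0.45), and with DESeq2, its size factors, a filter at 1 CPM or the replicate block. Mx2, its relative, was at 19 ± 3.01 CPM in untreated Null and 56.3 ± 3.33 CPM in untreated DKO MEFs (mean ± SD). It fell with etoposide in DKO MEFs by -0.38 (standard error 0.07), which library size alone reduced to -0.11, no longer past the threshold. In Null MEFs its value was -0.07 (standard error 0.08) (0.09 with library size alone), which passed without Null control 2 (-0.20), and the interaction of -0.31 (standard error 0.11, adjusted p = 0.0261) in that edgeR test was lost without Null control 2 or DKO control 3 (-0.26 to -0.19) and with library size alone (-0.20).

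Oasl1, an OAS-like protein without the synthetase activity that limits Irf7 translation, gave 15.3, 13.8 and 15.6 CPM in untreated Null and 45, 43.6 and 48.7 CPM in untreated DKO MEFs, and 18.8, 19.8 and 21 CPM and 66.3, 70.9 and 70 CPM after etoposide. No groups overlapped, and both DKO groups lay above both Null groups. DKO MEFs were 3.07-fold higher without etoposide and 3.49-fold after it. For the interaction the value was 0.18 (standard error 0.08, adjusted p = 0.0665) in the edgeR test and passed without Null control 2, DKO control 3, or Null etoposide 3 (0.23 to 0.24), with library size alone (0.29) and with the replicate block. Oasl2, which binds RNA and keeps synthetase activity, had means of 41.1 ± 1.79 and 72.3 ± 3.23 CPM untreated and 54.4 ± 5.06 and 160 ± 9.4 CPM treated, Null before DKO, and an interaction of 0.74 (standard error 0.09, adjusted p = 1.1e-06) in the same edgeR test. Oas1a, the smallest synthetase, was higher in DKO MEFs by 0.75 (standard error 0.06) without and 1.07 (standard error 0.06) after etoposide. Oas1a belongs to a cluster of close copies, so reads may be assigned among them with error.

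All 10 IFIT genes, viperin and other antiviral effectors were higher in untreated DKO than Null MEFs, and 9 of them after etoposide. Cmpk2 encodes a mitochondrial nucleotide kinase whose gene lies next to Rsad2. Its levels were 7.04, 6.91 and 6.83 CPM in untreated Null and 22.4, 21.1 and 25 CPM in untreated DKO MEFs, then 8.02, 6.73 and 10.1 CPM and 29.8, 31.3 and 32.3 CPM after etoposide. Null groups overlapped, and all DKO libraries lay well above them. The difference was 1.71 (standard error 0.10) without and 1.92 (standard error 0.10) after etoposide. Etoposide raised it in DKO MEFs by 0.45 (standard error 0.09), while the value in Null MEFs, 0.25 (standard error 0.12, adjusted p = 0.0585) in the edgeR test, lay near the threshold. It passed without Null etoposide 2 (0.38), with DESeq2, its size factors, library size alone (0.42), a filter at 1 CPM, the replicate block and the legacy fit. The interaction of 0.21 (standard error 0.15) passed without Null etoposide 3 (0.37).

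Rsad2 encodes viperin, which makes a chain-terminating nucleotide. It was measured at 13.2, 10.7 and 13.3 CPM in untreated Null, 10.9, 10.1 and 12.9 CPM in treated Null, 37.8, 37.1 and 44.1 CPM in untreated DKO and 22.1, 24.9 and 23.1 CPM in treated DKO MEFs. Null groups overlapped, and treated DKO libraries lay between them and untreated DKO libraries. Unlike Cmpk2, Rsad2 fell with etoposide in DKO MEFs, by -0.76 (standard error 0.09). In Null MEFs the value was -0.14 (standard error 0.10) (0.02 with library size alone) and passed without Null control 2 or Null etoposide 3 (-0.25). The interaction was -0.61 (standard error 0.13, adjusted p = 0.000839) in the edgeR test, and DKO MEFs remained 2.08-fold higher after etoposide, from 3.18-fold before.

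Ifit2, which binds viral RNA with its relatives, also fell in DKO MEFs. Null libraries gave 52.2, 50 and 48.5 CPM without and 53.1, 56.4 and 55.1 CPM with etoposide, and DKO libraries 92.3, 85.5 and 94.9 CPM and 66.5, 63.4 and 73.1 CPM. The 4 groups did not overlap, and untreated DKO libraries were the highest. The fall in DKO MEFs was -0.42 (standard error 0.05) and the interaction -0.55 (standard error 0.07, adjusted p = 6.95e-06) in the edgeR test. The rise in Null MEFs, 0.13 (standard error 0.05, adjusted p = 0.0384) in the same edgeR test, ended without Null control 2 or 3, or Null etoposide 2 or 3 (0.09 to 0.11).

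Ifit1, which binds RNA lacking a methylated cap, was 2.01-fold higher in DKO MEFs without etoposide and 1.59-fold after it. With etoposide it rose in Null MEFs by 0.18 (standard error 0.07), a call that ended without Null control 2 or 3, or Null etoposide 1 or 3 (0.11 to 0.18). In DKO MEFs it fell by -0.17 (standard error 0.07), a call that ended without DKO control 3, or DKO etoposide 1 or 2 (-0.19 to -0.08), was -0.28 without DKO control 2, and turned to 0.10 with library size alone. Its interaction was -0.34 (standard error 0.10, adjusted p = 0.00875) in the edgeR test and was lost with library size alone (-0.24). Ifit3, the partner of Ifit1, varied widely within groups, with 59.8, 23.5 and 32.2 CPM in treated DKO MEFs. Its rise in them, 0.61 (standard error 0.24, adjusted p = 0.0269) in that edgeR test, ended without DKO control 1 or 2, or DKO etoposide 1 (0.16 to 0.56). In Null MEFs it was 0.52 (standard error 0.29), not past the threshold, and the interaction of 0.09 (standard error 0.37) did not pass and ran from -0.35 to 0.34 over the alternatives. Ifit genes have close copies, which makes counts of single members uncertain.

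Ifi35, which binds the factor Nmi, was at 64.3, 61.6 and 63.4 CPM in untreated Null and 77.9, 74.5 and 72.4 CPM in untreated DKO MEFs, and at 120, 114 and 126 CPM and 110, 124 and 121 CPM after etoposide. Treated libraries of both genotypes overlapped and lay above all untreated ones. It rose by 0.93 (standard error 0.05) in Null and 0.66 (standard error 0.05) in DKO MEFs, with an interaction of -0.27 (standard error 0.07, adjusted p = 0.00262) in the edgeR test. The genotypes differed by 0.25 (standard error 0.05) without etoposide and -0.02 (standard error 0.05) after it, the latter not past the threshold. Of its exons 16.8% overlap Gm11626 on the opposite strand.

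Ifi44, a cytosolic protein that restrains virus growth, had the largest interaction of this group, 0.68 (standard error 0.09, adjusted p = 3.65e-06) in the edgeR test, from means of 82.5 ± 3.56 and 105 ± 9.39 CPM in Null to 158 ± 10.7 and 321 ± 17.6 CPM in DKO MEFs. Bst2 encodes tetherin, which holds budding viruses at the membrane. It rose by 0.18 (standard error 0.05) in Null and 0.37 (standard error 0.05) in DKO MEFs, but its interaction of 0.19 (standard error 0.07, adjusted p = 0.0335) in the same edgeR test was lost without Null control 1 or 3, DKO control 2 or 3, Null etoposide 1 or 2, or DKO etoposide 2 or 3 (0.13 to 0.19). Xaf1, a pro-apoptotic binding partner of XIAP, had an interaction of 0.26 (standard error 0.10, adjusted p = 0.0361) in that edgeR test, lost without Null control 1, DKO control 2, Null etoposide 1 or 2, or DKO etoposide 2 or 3 (0.18 to 0.25). Rtp4, a negative regulator of interferon signalling, was 2.37-fold higher in DKO MEFs without and 2.11-fold after etoposide. Its interaction of -0.17 (standard error 0.09) passed without Null control 1, DKO control 2, or Null etoposide 2 (-0.24 to -0.23) and with DESeq2, its size factors or a filter at 1 CPM, and 13.9% of its exons overlap a gene on the same strand.

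Both guanylate-binding proteins had an interaction below 0, with the larger response to etoposide in Null MEFs. Gbp3, a GTPase that acts on intracellular pathogens, gave 23.1, 22.2 and 21.2 CPM in untreated Null and 34.1, 29.3 and 33.9 CPM in untreated DKO MEFs, and 78.3, 73.8 and 83.2 CPM and 78.5, 87.6 and 89.4 CPM after etoposide. Treated libraries of the genotypes overlapped, and all lay above untreated ones. The rise was 3.54-fold in Null (log2 1.82, standard error 0.07) and 2.64-fold in DKO MEFs (log2 1.40, standard error 0.06), with an interaction of -0.42 (standard error 0.09, adjusted p = 0.000801) in the edgeR test. Between genotypes it was 0.54 (standard error 0.07) without etoposide and 0.12 (standard error 0.06) after it, which passed without Null etoposide 3 or DKO etoposide 1 (0.16 to 0.17).

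Gbp2, a relative that helps recognise bacteria in vacuoles, was at 23, 18.3 and 23.1 CPM in untreated Null, 39, 36.3 and 46.5 CPM in treated Null, 26.5, 24.1 and 28.5 CPM in untreated DKO and 27.7, 28.6 and 31 CPM in treated DKO MEFs. Treated Null libraries were the highest, and the DKO groups overlapped. It rose by 0.91 (standard error 0.09) in Null MEFs, and its value in DKO MEFs, 0.15 (standard error 0.10), did not pass, but passed with library size alone (0.42) and with the replicate block. The interaction was -0.76 (standard error 0.13, adjusted p = 0.000117) in the edgeR test. DKO MEFs were lower after etoposide by -0.47 (standard error 0.09), whereas the difference without it, 0.29 (standard error 0.10, adjusted p = 0.0147) in the same edgeR test, was lost without Null control 2 or DKO control 3 (0.19 to 0.23) and with library size alone. Gbp copies are alike in sequence, so their counts are uncertain.

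All 4 genes of the ISG15 system were higher in DKO MEFs in both treatments and rose with etoposide in both genotypes. Usp18, the protease that removes ISG15 and dampens the interferon receptor, was measured at 53.3, 50.1 and 49.7 CPM in untreated Null and 100, 91.3 and 102 CPM in untreated DKO MEFs, and at 114, 103 and 123 CPM and 176, 187 and 195 CPM after etoposide. The groups did not overlap, and treated DKO libraries were the highest. It rose by 1.15 (standard error 0.06) in Null and 0.93 (standard error 0.06) in DKO MEFs. The interaction of -0.22 (standard error 0.08, adjusted p = 0.0328) in the edgeR test ended without Null control 2 or 3, DKO control 1 or 3, Null etoposide 1 or 3, or DKO etoposide 1 (-0.22 to -0.16) and with library size alone.

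Isg15, the ubiquitin-like protein itself, had means of 31.1 ± 2.54 and 39 ± 2.75 CPM in Null and 37.4 ± 1.82 and 72.5 ± 8.21 CPM in DKO MEFs, without and with etoposide. Its interaction was 0.64 (standard error 0.11, adjusted p = 8.12e-05) in the edgeR test, and its difference between untreated genotypes, 0.26 (standard error 0.08), did not pass with library size alone. Herc6, the ligase of ISG15 in mouse, had an interaction of 0.28 (standard error 0.07, adjusted p = 0.00251) in the same edgeR test. Its rise in Null MEFs, 0.14 (standard error 0.05), ended without Null control 3 or Null etoposide 3 (0.08 to 0.11), and 13.7% of its exons overlap a gene on the same strand. Trim25, a ligase that acts on RIG-I, had an interaction of 0.31 (standard error 0.09, adjusted p = 0.00731) in that edgeR test, which was 0.20 without DKO etoposide 2. Its rise in Null MEFs, 0.17 (standard error 0.06), ended without Null control 1 or 2, or Null etoposide 1 or 3 (0.13 to 0.17).

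The PARP9 group was higher in DKO MEFs throughout. Dtx3l, a ubiquitin ligase and partner of Parp9, rose by 0.81 (standard error 0.05) in Null and 0.43 (standard error 0.05) in DKO MEFs, with an interaction of -0.38 (standard error 0.07, adjusted p = 0.000246) in the edgeR test. Parp9, an ADP-ribosyltransferase of that complex, differed between genotypes by 0.82 (standard error 0.05) without and 1.00 (standard error 0.05) after etoposide. Its interaction of 0.17 (standard error 0.07, adjusted p = 0.0491) in the same edgeR test ended without Null control 1 or 3, DKO control 1 or 2, Null etoposide 1 or 2, or DKO etoposide 2 or 3 (0.12 to 0.17). Dtx3l and Parp9 overlap on opposite strands in 8% and 9.4% of their exons. Parp14, a mono-ADP-ribosyltransferase, differed by 1.06 (standard error 0.05) and 1.03 (standard error 0.05). It rose with etoposide in Null MEFs by 0.12 (standard error 0.05), a call that ended without Null control 1, 2 or 3, or Null etoposide 1 or 3 (0.09 to 0.13). In DKO MEFs its value was 0.09 (standard error 0.05), which passed without DKO control 3 (0.13), with library size alone (0.37) and with a filter at 1 CPM. The interaction of -0.03 (standard error 0.07) (0.08 with library size alone) did not pass.

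Both limiters of self nucleic acids were higher in DKO MEFs after etoposide. Samhd1, which hydrolyses the building blocks of DNA, gave 130, 136 and 125 CPM in untreated Null and 155, 155 and 152 CPM in untreated DKO MEFs, and 66.5, 68.2 and 67.5 CPM and 102, 110 and 96.8 CPM after etoposide. No groups overlapped, and treated Null libraries were the lowest. It fell by -0.95 (standard error 0.04) in Null and -0.59 (standard error 0.04) in DKO MEFs, with an interaction of 0.36 (standard error 0.06, adjusted p = 6.95e-05) in the edgeR test. Adar, which edits adenosine to inosine in double-stranded RNA, rose by 0.14 (standard error 0.04) in Null and 0.70 (standard error 0.04) in DKO MEFs, with an interaction of 0.56 (standard error 0.05, adjusted p = 5.18e-08) in the same edgeR test. Untreated genotypes differed by -0.06 (standard error 0.04), not past the threshold and lower with library size alone, and 16.8% of the exons of Adar overlap Chrnb2 on the opposite strand.

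Other genes of the pathway were listed beside the members, 101 in all, of which 90 were tested. After etoposide 43 were higher and 26 lower in Null MEFs (47.8% and 28.9%, beside 42.3% and 37.2% of all genes), and 45 and 26 in DKO MEFs (50% and 28.9%, beside 43.7% and 31.5%). Between genotypes 56 were higher and 15 lower in untreated DKO MEFs (62.2% and 16.7%, beside 33.3% and 33.4%), and 55 and 27 after etoposide (61.1% and 30%, beside 37.5% and 36.6%). The interaction was above 0 for 26 and below 0 for 27 (28.9% and 30%, beside 29.6% and 24.4%). Median log2 fold changes were 0.32, 0.22, 0.39, 0.33 and -0.02 in that order. With library size alone the split became 51 and 20, 61 and 16, 55 and 21, 53 and 27, and 32 and 21 in the same order.

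The receptor genes Ifnar1 and Ifnar2 were higher in DKO MEFs by 0.45 (standard error 0.03) and 0.29 (standard error 0.05) without etoposide and by 0.71 (standard error 0.03) and 0.48 (standard error 0.05) after it. Ifnar1 fell with etoposide in Null MEFs by -0.27 (standard error 0.03). In DKO MEFs its value, -0.01 (standard error 0.03), did not pass and turned to 0.26 with library size alone. Ifnar2 fell in Null MEFs by -0.13 (standard error 0.05), a call lost without Null control 1 or 3, or Null etoposide 2 (-0.13 to -0.10) and turned to 0.04 with library size alone. Its interaction of 0.19 (standard error 0.07) was lost without Null control 1 or 3, DKO control 1 or 3, Null etoposide 2, or DKO etoposide 2 or 3 (0.14 to 0.19).

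The kinase gene Jak1 fell with etoposide by -1.19 (standard error 0.04) in Null and -0.80 (standard error 0.04) in DKO MEFs, and its difference between untreated genotypes, -0.11 (standard error 0.04), was lost without Null control 2 or DKO control 2 (-0.10 to -0.08). Stat3 fell by -1.13 (standard error 0.04) in DKO MEFs, and its interaction of -0.12 (standard error 0.05) passed without Null control 3, DKO control 2, Null etoposide 1, or DKO etoposide 2 (-0.17 to -0.14). Ifnlr1, a subunit of the lambda receptor, was lower in untreated DKO MEFs by -2.84 (standard error 0.21). Its rise with etoposide in DKO MEFs, 0.89 (standard error 0.28), ended without DKO control 2 (0.59). Mavs, the adaptor of the RNA receptors, differed by 0.10 (standard error 0.04) between untreated genotypes. This passed without Null control 2 (0.13), with DESeq2's size factors and with the legacy fit, and turned to -0.02 with library size alone.

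Tbk1, the kinase that activates Irf3, was lower in treated DKO MEFs by -0.15 (standard error 0.04). Its untreated difference of 0.02 (standard error 0.04) did not pass and turned to -0.11 with library size alone, and its interaction of -0.17 (standard error 0.05) was lost without Null control 2 (-0.14) and with library size alone (-0.06). The related kinase gene Ikbke rose 5.15-fold with etoposide in Null MEFs. In DKO MEFs its rise of 0.29 (standard error 0.10) ended without DKO control 2, or DKO etoposide 1 or 2 (0.21 to 0.24), and the interaction came to -2.07 (standard error 0.14, adjusted p = 9.6e-10) in the edgeR test. Tank, an adaptor of both kinases, fell by -1.15 (standard error 0.04) in Null MEFs, and its difference of 0.12 (standard error 0.04) in treated MEFs was lost without Null etoposide 3, or DKO etoposide 1 or 3 (0.07 to 0.10), and with DESeq2, its size factors, library size alone, no filter or a filter at 1 CPM. Irf5 was lower in untreated DKO MEFs by -1.88 (standard error 0.06), with an interaction of 1.13 (standard error 0.09).

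Nlrc5, an activator of class I antigen presentation, rose by 2.34 (standard error 0.07) in Null and 1.98 (standard error 0.08) in DKO MEFs, and was lower in treated DKO MEFs by -2.15 (standard error 0.07). The galectin gene Lgals9 was lower in DKO MEFs by -2.20 (standard error 0.05) without and -2.42 (standard error 0.05) after etoposide, with an interaction of -0.22 (standard error 0.08) that was lost without Null control 3, DKO control 3, or Null etoposide 3 (-0.19 to -0.17). Slfn2 had an interaction of -2.71 (standard error 0.26), lower in treated DKO MEFs by -2.08 (standard error 0.18), and Trim14 one of 1.73 (standard error 0.20). Of the exons of Trim14, 38% overlap genes on the opposite strand, which leaves its counts uncertain.

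The GTPase gene Tgtp1 was higher in untreated DKO MEFs by 4.27 (standard error 0.16), and its rise in Null MEFs, 0.79 (standard error 0.24), ended without Null etoposide 1 (0.48). Its close copy Tgtp2 was higher in treated DKO MEFs by 3.70 (standard error 0.30) and fell in Null MEFs by -2.26 (standard error 0.38). The fall of Tgtp2 in DKO MEFs, -0.48 (standard error 0.17), ended without DKO control 3 (-0.37), and reads of the copies may be assigned to each other. Gbp6 gave 8.54, 27.9 and 5.32 CPM in treated DKO MEFs. Without DKO etoposide 2 both its rise there (0.93 from 2.02) and its difference between treated genotypes (1.03 from 2.12) were lost. Phf11d and Phf11b were higher in untreated DKO MEFs by 3.24 (standard error 0.09) and 2.92 (standard error 0.34). The values of Phf11b with etoposide in Null MEFs, 0.71 (standard error 0.49), and for the interaction, -0.80 (standard error 0.53), passed without Null control 1 (1.68 and -1.78). Ifit1bl1 fell in DKO MEFs by -1.81 (standard error 0.35), and its interaction of -2.09 (standard error 0.70) was lost without Null etoposide 2 (-1.41).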

How the data were processed

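RNA-Seq was made from 3 libraries in each of the 4 groups, and the deposited values are whole counts of read pairs per gene, without normalization by the authors. The submitters' processing notes list HISAT2, featureCounts and the mm10 build, whereas the paper's methods name HTSeq with GENCODE genes, and the summary lines of the table are written in HTSeq's form. By the paper's methods the library kit was a stranded one. Neither program versions nor whether reads were counted by strand could be read from the sources used here. The 5 summary lines were kept out of library sizes and tests. The share on genes was 56 to 58.9% in untreated Null, 60.8 to 63.1% in untreated DKO, 53.4 to 55% in treated Null and 57.6 to 59.1% in treated DKO MEFs, and that on no feature 22.5 to 24.2%, 20.2 to 21.1%, 25.1 to 27.3% and 21.2 to 22.3% in the same order. Of each library, 15.9 to 20.5% were aligned at several places and 0.428 to 0.513% were ambiguous. Genes were filtered with filterByExpr, scaled by TMM and fitted with edgeR 4.0.16 in R 4.3.3, all 12 libraries in 1 quasi-likelihood model with a factor for group, and the 5 comparisons were adjusted over 15220 genes. The standard error is the absolute log2 value over the square root of F. Gene positions and exon lengths came from GENCODE M21 on GRCm38 and promoter windows from RefSeq. Figures were drawn with matplotlib 3.10.9 in Python 3.11.15.

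The members and the lists were chosen with earlier results of these data known. Values in every library are given for the interferon gene, the sensors, the transcription factors, and per comparison up to 4 called members at each extreme of the log2 values, provided that some group averaged 1 CPM. Other pathway genes were named as the 3 most extreme in each direction under these conditions, with Ifnar1, Ifnar2, Mavs and Tbk1 added whatever their values. Some genes of that list are not reported here, though its counts and medians include them. Members named beyond this rule are given by means, ranges or single tests. Alternatives were DESeq2 1.42.0, limma-trend (limma 3.58.1, prior count 2), DESeq2's size factors in edgeR, library size alone, no filter, a filter at a mean of 1 CPM, the replicate number as a block, only the 2 groups compared, and each library left out in turn. The legacy version of the quasi-likelihood fit was chosen after seeing the data.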

Additional observations from a re-analysis of the deposited data

Results flagged for a closer look

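The response to etoposide differed between the genotypes by the interaction test of the edgeR model for 33 members. Of the members 56.1% were above 0 and 24.4% below, beside 29.6% and 24.4% of all genes tested. The value of each is the log2 fold change with etoposide in DKO MEFs minus that in Null MEFs. Among the sensors the values were Ddx58 0.70, Ifih1 0.42, Dhx58 0.81 and Eif2ak2 0.34 for receptors and kinase of RNA, and Mb21d1 0.23, Tmem173 0.40 and Zbp1 0.39 for DNA and Z-form sensing. Transcription factors gave Irf1 -0.85, Irf7 0.75, Irf9 0.22 and Stat2 0.57. The OAS and MX families gave Mx2 -0.31, Oas1a 0.32, Oas2 0.93, Oas3 1.51 and Oasl2 0.74. Among the IFIT genes, viperin and their like the values were Ifit1 -0.34, Ifit2 -0.55, Rsad2 -0.61, Bst2 0.19, Ifi35 -0.27, Ifi44 0.68 and Xaf1 0.26. Guanylate-binding proteins gave Gbp2 -0.76 and Gbp3 -0.42, and the ISG15 system gave Isg15 0.64, Usp18 -0.22, Herc6 0.28 and Trim25 0.31. For the PARP9 group they were Parp9 0.17 and Dtx3l -0.38, and for the limiters of self nucleic acids Adar 0.56 and Samhd1 0.36.

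Among the other pathway genes named, 15 met the same condition. Over the 90 tested, 28.9% were above 0 and 30% below, beside 29.6% and 24.4% of all genes. Receptors and kinases gave Ifnar1 0.26, Ifnar2 0.19, Ifnlr1 1.42 and Jak1 0.39, and adaptors and factors of sensing gave Tank 0.55, Tbk1 -0.17, Ikbke -2.07 and Irf5 1.13. Other interferon-stimulated genes gave Tgtp1 -1.16, Tgtp2 1.78, Nlrc5 -0.36, Lgals9 -0.22, Trim14 1.73, Slfn2 -2.71 and Ifit1bl1 -2.09. Calls that ended when 1 library was left out are given with their genes above.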

How the results depend on the processing

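Each member's log2 fold change was recomputed under every alternative, except Ifnb1 under the filter at 1 CPM, which removes it, and interactions in fits of 2 groups. Values short of the threshold may change sign and still count as kept. With 1 library left out 1388 kept their side of the threshold, 69 were no longer past it and 19 were newly past it. Library size alone changed most. With it, the log2 fold change with etoposide turned to 0.26 for Tmem173, 0.02 for Irf1, 0.19 for Irf3, 0.10 for Ifit1 and 0.26 for Ifnar1 in DKO MEFs, and to 0.10 for Irf3 and 0.04 for Ifnar2 in Null MEFs, while Tbk1 turned to -0.11 in untreated DKO against Null MEFs. With the same scaling, 4 members in place of 8 were lower after etoposide in DKO MEFs, 4 in place of 2 were lower in untreated DKO MEFs, and 16 other pathway genes in place of 26 were lower after etoposide in DKO MEFs. For all of these the cause was not tested.

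With 1 library left out, between 24 and 30 members were higher and 5 to 7 lower after etoposide in Null MEFs, and 28 to 31 higher and 6 to 8 lower in DKO MEFs. In DKO against Null MEFs 33 to 35 were higher without etoposide and 34 to 35 after it, with 2 lower in each, and the interaction was above 0 for 19 to 25 and below 0 for 8 to 11. A fit that pools the spread was used for these, so a group left with 2 libraries borrowed the spread of the others. With the replicate block, members higher numbered 30 and 31 after etoposide in Null and DKO MEFs, 34 and 35 in DKO against Null MEFs without and after it, and 24 for the interaction, against 5, 7, 2, 2 and 11 lower. Nothing in the labels pairs the libraries. Deviations of same-numbered libraries from their group means had correlations between -0.03 and 0.04 across genes. A library correlated best with its own number in 19 of 36 pairings with another group, each of which offered 3 libraries to match. These values do not settle whether the numbers pair the libraries. Under the legacy quasi-likelihood fit, chosen after seeing the data, 203 member values were as before, 1 was newly past the threshold and 1 no longer was.

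Calls of named genes also changed with other settings. With DESeq2 the calls that ended were Ifnar2 for etoposide in Null MEFs, Stat2, Ifit1 and Ifit3 for etoposide in DKO MEFs, Tank for treated DKO against Null MEFs and Zbp1, Bst2, Xaf1, Parp9, Ifnar2 and Ifit1bl1 for the interaction. New ones were Cmpk2 for etoposide in Null MEFs and Mx1, Rtp4 and Stat3 for the interaction. With DESeq2's size factors in edgeR those that ended were Ifnar2 for etoposide in Null MEFs, Stat2 for etoposide in DKO MEFs, Tank for treated DKO against Null MEFs and Zbp1, Bst2, Xaf1, Parp9 and Ifnar2 for the interaction. New here were Cmpk2 for etoposide in Null MEFs, Mavs for untreated DKO against Null MEFs and Mx1, Rtp4 and Stat3 for the interaction. Of the values turned by library size alone, the calls of Irf1 and Ifit1 for etoposide in DKO MEFs and of Ifnar2 in Null MEFs ended. New among them were Tmem173 and Ifnar1 as higher in DKO MEFs, Irf3 as higher in Null MEFs and Tbk1 as lower in untreated DKO MEFs. Irf3 in DKO MEFs was called higher in place of lower. Besides these, library size alone ended the calls of Mx2, Tgtp2 and Tgtp1 for etoposide in DKO MEFs, Gbp2 and Isg15 for untreated DKO against Null MEFs, Tank for treated DKO against Null MEFs and Mx2, Ifit1, Usp18, Tbk1, Nlrc5 and Lgals9 for the interaction. It added Oas3, Ifit3 and Cmpk2 for etoposide in Null MEFs, Gbp2, Parp14, Ifnar2 and Irf5 for etoposide in DKO MEFs, Mb21d1 and Adar for untreated DKO against Null MEFs and Oasl1 for the interaction. Under limma-trend those of Ifit1 for etoposide in Null MEFs, Ifit1, Ifit3, Tgtp2 and Gbp6 for etoposide in DKO MEFs and Gbp6 for treated DKO against Null MEFs ended, and Phf11b for etoposide in Null MEFs and Stat3 for the interaction were new. With no filter Ifit1, Ifit2, Herc6, Trim25 and Parp14 for etoposide in Null MEFs, Stat2 for etoposide in DKO MEFs, Tank for treated DKO against Null MEFs and Parp9 and Ifnar2 for the interaction ended. The filter at 1 CPM ended Ifnar2 for etoposide in Null MEFs, Irf3 and Ifit1 for etoposide in DKO MEFs, Tank for treated DKO against Null MEFs and Bst2, Xaf1, Parp9 and Ifnar2 for the interaction. It added Cmpk2 for etoposide in Null MEFs, Parp14 for etoposide in DKO MEFs and Mx1, Rtp4 and Stat3 for the interaction. The replicate block ended Irf3 for etoposide in DKO MEFs, and added Cmpk2 for etoposide in Null MEFs, Gbp2 for etoposide in DKO MEFs, Ifnb1 for treated DKO against Null MEFs and Mx1 and Oasl1 for the interaction. In fits of only the 2 groups compared, Stat2 and Ifit3 for etoposide in DKO MEFs ended and Ifit3 for etoposide in Null MEFs was new. The legacy fit ended Tgtp2 for etoposide in DKO MEFs and Parp9 for the interaction, and added Cmpk2 for etoposide in Null MEFs and Mavs for untreated DKO against Null MEFs. Depth limits scarce genes, with 6 to 68 counts per library for Ifnb1, 0 to 16 for Ifna4 and 1 to 28 for Ifnz.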
